A study of Homo sapiens with 16 samples.

Results

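The genes described here are 57 components of the Notch and Wnt signaling pathways, 24 of Notch and 33 of Wnt. They were chosen by name, as receptors, ligands, processing enzymes, nuclear effectors, targets and inhibitors, and a peak belongs to a gene where the authors assigned it to that gene. At least 1 peak was listed for 51 of the 57 genes, among 15580 genes named in the deposited lists, and 385 of the 118439 listed peaks were theirs. Occupancy of DNMT3B, a de novo DNA methyltransferase, and of OCT1, a POU-domain transcription factor encoded by POU2F1, was measured by ChIP-seq in MCF10CA1a cells. These are invasive human breast cancer cells that descend from MCF10A mammary epithelial cells transformed with active Harvey-ras. Cells received pterostilbene (PTS), a stilbenoid polyphenol, at 7 µM for 9 days, or only the ethanol vehicle. For each antibody, 3 PTS-treated and 3 vehicle-treated replicates were sequenced, with 1 input library per treatment, and each group of 3 replicates has a single peak list. There are therefore 4 lists, no value per replicate and no error between replicates, and all the data come from 1 cell line.

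In the Notch pathway, a ligand of the Jagged or Delta-like family on 1 cell binds a Notch receptor on its neighbor, and proteases then release the receptor's intracellular domain. This fragment enters the nucleus, where it binds RBPJ and a Mastermind-like coactivator and switches on genes such as HES1. In the canonical Wnt pathway, a secreted Wnt ligand engages a Frizzled receptor with LRP5 or LRP6, a destruction complex of APC, Axin and GSK3B loses its hold on β-catenin, and β-catenin works with TCF/LEF factors on DNA. Both pathways govern cell fate in the mammary gland and are often active in breast cancer.

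The value given for a peak is its pileup, the number of fragments of a list that cover its summit. The values of the vehicle lists are whole numbers, and those of the PTS lists are multiples of 0.913 for DNMT3B and 0.990 for OCT1, from which a scaling to the depth of the vehicle libraries is inferred. A constant background of 3.20 fragments for DNMT3B and 3.50 for OCT1 stands in every fold, so no value of the other treatment enters a peak's own score. The submitters describe each list as enriched in 1 treatment, yet the lists overlap, so a place missing from a list is taken here only as not listed. The lists held 4326 peaks for DNMT3B in PTS-treated cells, 15855 for DNMT3B in vehicle-treated cells, 16071 for OCT1 in PTS-treated cells and 82187 for OCT1 in vehicle-treated cells. They do not start at the same level, since the lowest listed pileups were 12.78, 11, 12.86 and 11 in that order. The depths per list implied by the backgrounds were 43200000 to 47700000 reads. A deposited P-value under 0.05, which is a transformed score and not a probability, needed a pileup of at least 24.65, 24, 24.74 and 24 in the same order.

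Before the values, a few of the sequences under these peaks are shown, since later paragraphs refer to these peaks. All are from GRCh37/hg19, plus strand. The first is the center of the DNMT3B peak in an intron of NLK (chr17:26438792-26439031), the peak of these genes with the highest pileup, and its capitals mark 2 uninterrupted GT repeats of 34 and 50 bases.
NLK intron: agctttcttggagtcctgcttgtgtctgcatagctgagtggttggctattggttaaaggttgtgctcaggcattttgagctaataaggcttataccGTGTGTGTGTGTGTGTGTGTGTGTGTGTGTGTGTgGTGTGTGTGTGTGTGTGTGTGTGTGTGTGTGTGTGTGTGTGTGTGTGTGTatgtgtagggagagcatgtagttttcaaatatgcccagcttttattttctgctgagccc
The next is the OCT1 peak of PTS-treated cells in an intron of JAG2 (chr14:105628751-105628998). Capitals mark the 6 copies of CCAGGGCA, an 8-letter word chosen after this sequence was seen.
JAG2 intron: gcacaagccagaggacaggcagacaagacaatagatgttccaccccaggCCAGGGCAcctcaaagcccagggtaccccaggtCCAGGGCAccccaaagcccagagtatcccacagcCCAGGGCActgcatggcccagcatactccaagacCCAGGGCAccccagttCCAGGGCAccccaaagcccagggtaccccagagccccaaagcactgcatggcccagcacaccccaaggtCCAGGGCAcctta
The third is the OCT1 peak of PTS-treated cells at NOTCH2 (chr1:120627814-120628041). Capitals mark the 6 bases at which it differs from a near-identical stretch at chr1:145192002-145192229.
NOTCH2: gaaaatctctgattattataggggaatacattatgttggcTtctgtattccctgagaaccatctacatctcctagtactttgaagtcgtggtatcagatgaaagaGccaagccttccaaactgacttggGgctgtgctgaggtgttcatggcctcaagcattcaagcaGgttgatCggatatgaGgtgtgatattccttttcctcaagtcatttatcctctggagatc
The fourth is the 201 bases around the summit of the highest OCT1 peak of these genes in PTS-treated cells, upstream of TCF7 (chr5:133436663-133436863), with its CpG dinucleotides, the substrate of DNMT3B, in capitals. DNA methylation at these bases was not examined.
TCF7 upstream: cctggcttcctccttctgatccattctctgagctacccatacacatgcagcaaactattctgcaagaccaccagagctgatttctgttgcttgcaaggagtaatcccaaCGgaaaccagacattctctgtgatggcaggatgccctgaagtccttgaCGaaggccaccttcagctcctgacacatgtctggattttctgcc
The last are the peaks that hold the octamer ATGCAAAT, the consensus of POU factors, in capitals. They lie in an intron of TCF7 (chr5:133475653-133475934) and upstream of WNT3A (chr1:228193526-228193729), both in the OCT1 list of vehicle-treated cells.
TCF7 intron: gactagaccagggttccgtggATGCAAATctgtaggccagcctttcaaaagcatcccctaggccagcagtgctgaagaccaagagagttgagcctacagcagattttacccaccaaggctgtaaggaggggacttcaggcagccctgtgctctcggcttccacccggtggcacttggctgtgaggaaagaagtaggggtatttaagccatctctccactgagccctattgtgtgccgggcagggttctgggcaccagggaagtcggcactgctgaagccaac
WNT3A upstream: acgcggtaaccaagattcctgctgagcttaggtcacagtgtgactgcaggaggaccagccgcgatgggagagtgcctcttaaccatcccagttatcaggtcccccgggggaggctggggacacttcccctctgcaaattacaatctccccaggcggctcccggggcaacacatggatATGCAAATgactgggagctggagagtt

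DNMT3B was listed at few of these genes, and OCT1 of vehicle-treated cells at nearly all of them. In the DNMT3B list of PTS-treated cells, 5 of the 57 genes (8.77%) held 6 peaks, where 3.36% of 20090 protein-coding genes and 6.02% of the genes named in any list held one. The DNMT3B list of vehicle-treated cells had 27 peaks at 10 of the genes (17.5%), with 14.6% of protein-coding genes and 23.9% of named genes. OCT1 had 38 peaks at 13 of the genes (22.8%) in PTS-treated cells, where 13.1% of protein-coding genes and 21.4% of named genes held one. In vehicle-treated cells, OCT1 had 314 peaks at 51 of the genes (89.5%), with 59.9% of protein-coding genes and 97.1% of named genes. The share of these 57 genes thus lay above that of protein-coding genes in all 4 lists. Against named genes it was lower in both lists of vehicle-treated cells and higher in both lists of PTS-treated cells. Named genes hold a peak in at least 1 list by definition, while 6 of the 57 hold none, so this second comparison is not like for like. All 51 genes with a peak in any list had an OCT1 peak in vehicle-treated cells, beside the 97.1% of named genes. The reading depends on the genes they are set against. A total of 33 genes (57.9%) had a peak in the OCT1 list of vehicle-treated cells and in no other, TCF7 alone (1.75% of the 57) had a peak in all 4 lists, and NOTCH4, DLL1, HEY2, FZD7, DVL2 and DKK1 had none. Over all protein-coding genes, 41.5% were listed for OCT1 of vehicle-treated cells only and 2.63% in all 4 lists. All 13 genes with an OCT1 peak in PTS-treated cells also had one in vehicle-treated cells, as did 95% of protein-coding genes with an OCT1 peak in PTS-treated cells.

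**Figure D1:**
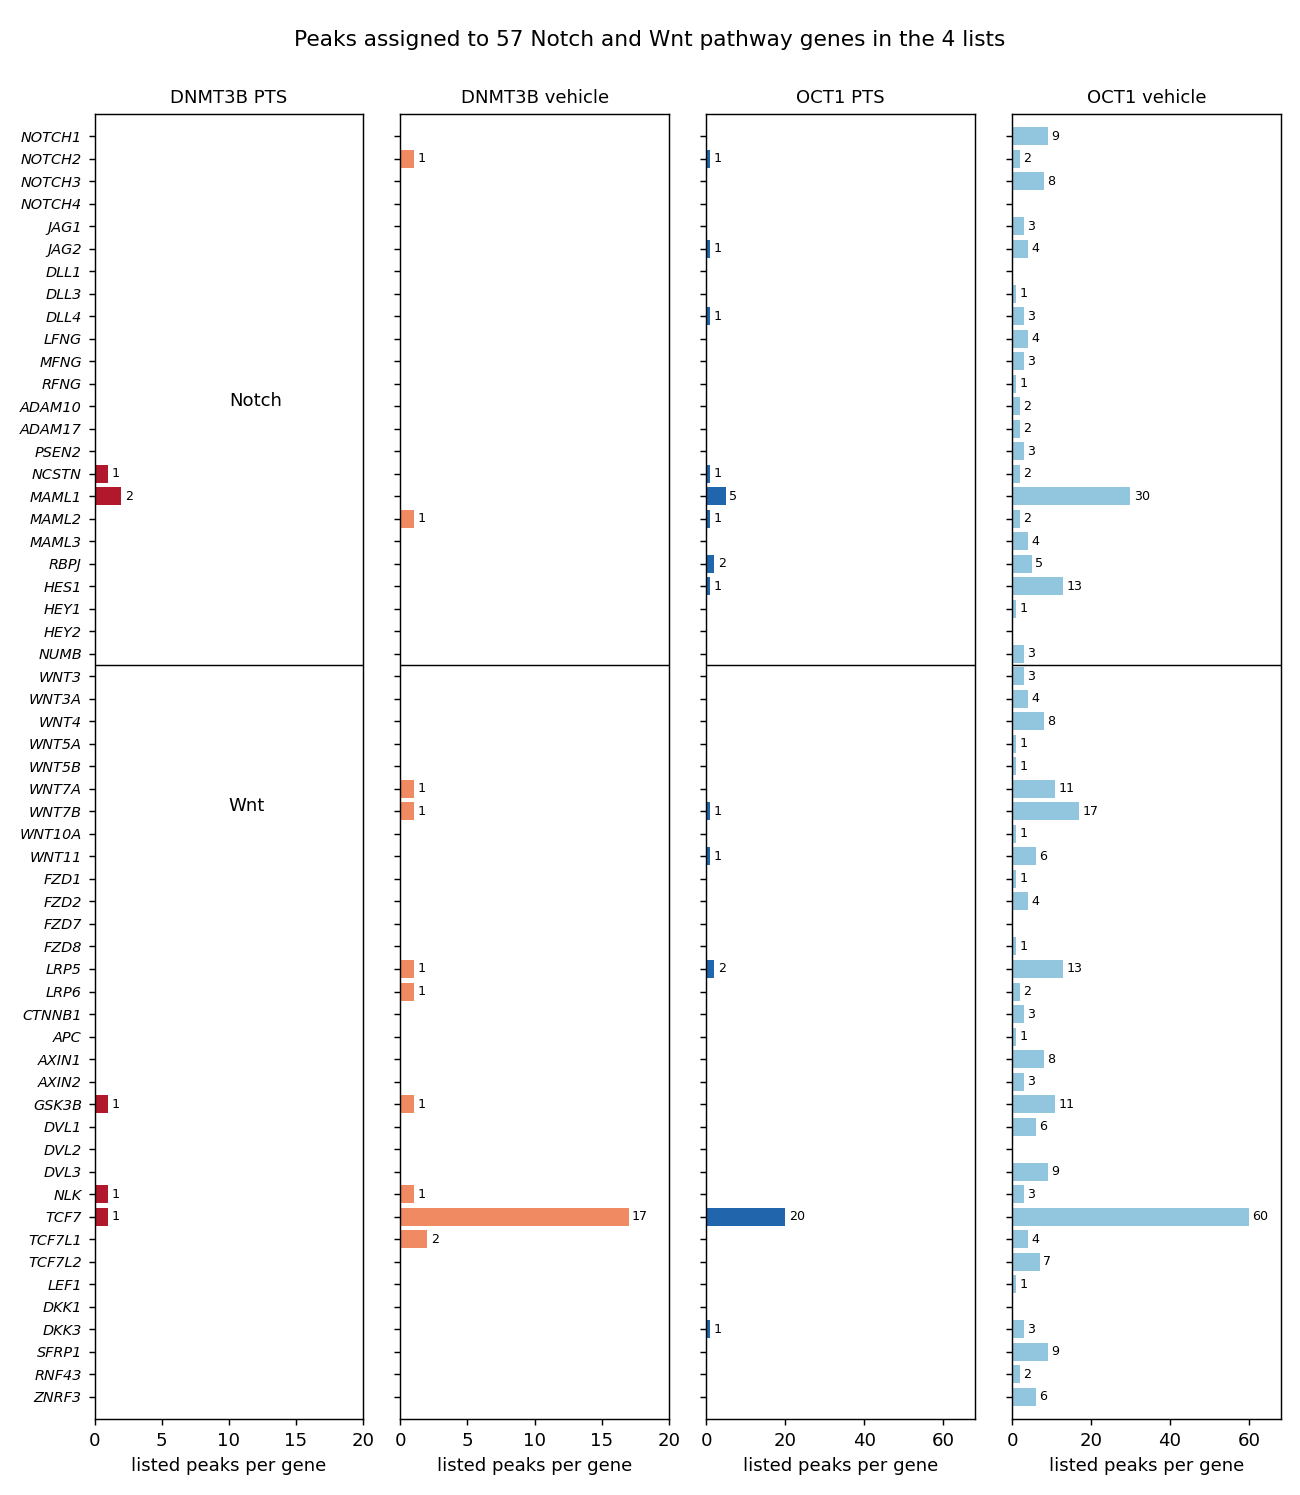
Number of listed peaks (horizontal axis) for each of the 57 genes (rows, 24 Notch genes above the line and 33 Wnt genes below it) in the 4 lists, whose axes differ between antibodies. TCF7 holds 17 of 27 DNMT3B peaks of vehicle-treated cells, 20 of 38 OCT1 peaks of PTS-treated cells and 60 of 314 OCT1 peaks of vehicle-treated cells.

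Most of these peaks were low. The pileups of the 6 DNMT3B peaks of PTS-treated cells ranged between 15.52 and 28.31, and those of the 27 peaks of vehicle-treated cells between 13 and 33. For OCT1 they ranged between 13.85 and 23.75 in PTS-treated cells (median 16.82) and between 11 and 24 in vehicle-treated cells (median 15). All peaks of these lists together had medians of 17.81 and 15, and their highest pileups were 395.83 and 399. With a deposited P-value under 0.05, only NLK was left in either DNMT3B list, where 0.662% of protein-coding genes and 1.53% of named genes in the PTS list, and 0.901% and 1.95% in the vehicle list, had such a peak. No gene was left in the OCT1 list of PTS-treated cells (0.777% of protein-coding genes, 1.75% of named genes), and only JAG2 in that of vehicle-treated cells (1.49% and 3.03%).

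**Figure D2:**
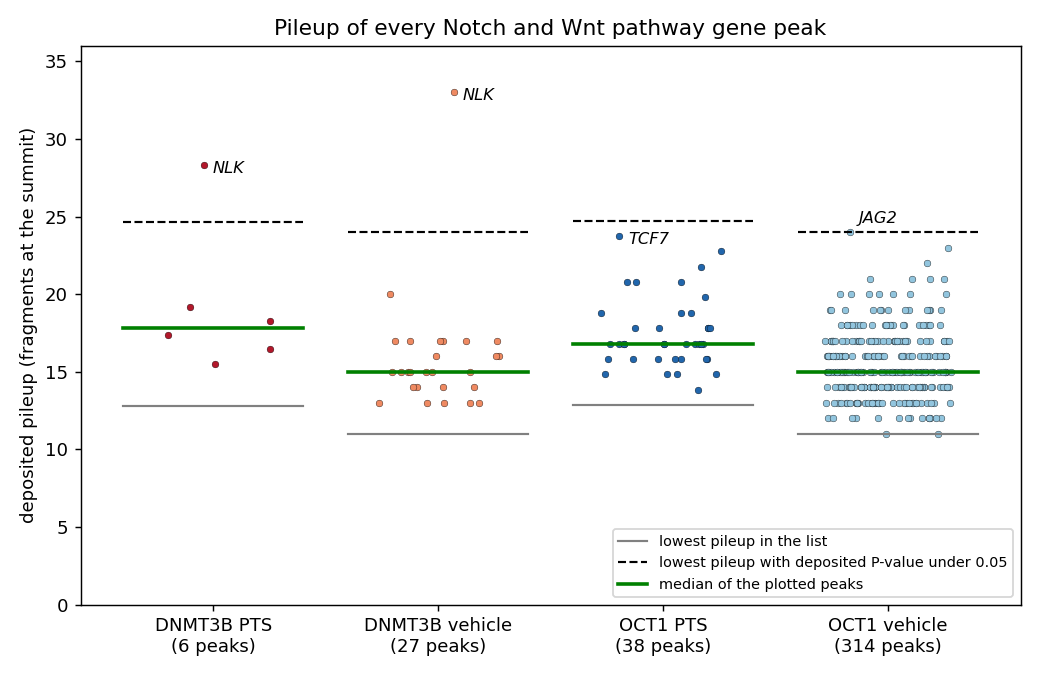
Deposited pileup (vertical axis, fragments at the summit) of each peak of the 57 genes in the 4 lists, with small sideways shifts for legibility. Grey lines mark the lowest pileup of each list, green lines the median of the plotted peaks and dashed lines the lowest pileup with a deposited P-value under 0.05, which only the DNMT3B peaks of NLK and 1 OCT1 peak of JAG2 reach.

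Among the Notch receptors, OCT1 of vehicle-treated cells had 19 peaks at 3 of 4 genes. NOTCH1 had 9 of them, all inside the gene, with pileups between 13 and 17 (median 14), and no peak in the other 3 lists. NOTCH3 had 8 peaks between 13 and 16 (median 14.5), likewise only in this list. NOTCH2 was the only receptor with peaks beyond it. Its OCT1 peak had a pileup of 21.77 in PTS-treated cells against 15 in vehicle-treated cells, and a further OCT1 peak of 19 was listed only in vehicle-treated cells. DNMT3B had 1 peak at NOTCH2, with 17 in vehicle-treated cells and none listed in PTS-treated cells. The file places the OCT1 peak of PTS-treated cells 15498 bp upstream of its NOTCH2 model, while GENCODE has a longer transcript with this place in an intron. All 4 NOTCH2 peaks, the sequence shown above included, have a near-identical stretch between chr1:145190269 and chr1:145265475, 97.4% to 98.8% identical, in the region whose peaks the lists assign to NOTCH2NL. Reads of the copies can be hard to place, so the NOTCH2 values are uncertain.

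The Notch ligands are membrane proteins of the Jagged and Delta-like families, and 4 of 5 held OCT1 peaks in vehicle-treated cells. JAG2 had an OCT1 pileup of 19.79 in PTS-treated cells against 24 in vehicle-treated cells, the highest of the 57 genes in the vehicle list, in the intron whose sequence is shown above (chr14:105628714-105629084 in vehicle-treated cells). The deposited P-value was 0.0496 in vehicle-treated cells, just inside the threshold. At least 4 copies of CCAGGGCA were found, on both strands, in 2 of 15131 OCT1 peaks of PTS-treated cells (0.0132%) and 6 of 81088 of vehicle-treated cells (0.00740%) on chromosomes 1 to 22 and X. The JAG2 peaks are counted among these. The word was chosen from JAG2, so these shares are a description only. JAG2 had 3 more OCT1 peaks in vehicle-treated cells, the lowest at 12. DLL4 had an OCT1 peak of 16.82 in PTS-treated cells, in its UTR and in insulator and Polycomb-repressed states. In vehicle-treated cells DLL4 instead had 3 peaks of 14 to 17, all upstream, the nearest with its summit 627 bp before the gene's start in a poised promoter state. JAG1 had 3 peaks of 13 to 15 and DLL3 1 peak of 13, both only in vehicle-treated cells, and no DNMT3B peak was listed for any ligand.

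The fringe enzymes LFNG, MFNG and RFNG, which add sugars to Notch receptors, had 8 OCT1 peaks of vehicle-treated cells between them and none in the other lists. The RFNG peak, with a pileup of 17, lay 993 bp inside the gene in a weak promoter state. Among the proteases, ADAM10 and ADAM17 make the first cut of the bound receptor, and PSEN2 and NCSTN belong to γ-secretase, which makes the next. ADAM10, ADAM17 and PSEN2 had 2, 2 and 3 OCT1 peaks of vehicle-treated cells with pileups of 13 to 17, and none elsewhere. NCSTN was listed in 3 lists. At its promoter, OCT1 had 17.81 in PTS-treated cells against 17 in vehicle-treated cells, in an active promoter state 228 bp and 267 bp from the gene's start. A second vehicle peak of 15 overlaps a PTS peak of 20.78 that the list assigns to COPA, the gene on the opposite strand, and the NCSTN peaks are listed for COPA too. DNMT3B had a peak of 18.26 within NCSTN (chr1:160321114-160321361) in PTS-treated cells, in a transcribed state, and none was listed in vehicle-treated cells. NUMB, an inhibitor of Notch, had 3 OCT1 peaks of 15 to 19, only in vehicle-treated cells.

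The nuclear effectors held 41 of the 105 OCT1 peaks of Notch genes in vehicle-treated cells, and MAML1, a Mastermind-like coactivator, held 30 of these. Pileups of MAML1 were 15.83 to 20.78 at its 5 OCT1 peaks in PTS-treated cells and 11 to 20 at its 30 peaks in vehicle-treated cells. Only 1 of the 5 shared bases with a vehicle peak, at 15.83 in PTS-treated cells against 13 in vehicle-treated cells. DNMT3B had 2 peaks in MAML1, both in introns and only in PTS-treated cells. Their pileups were 16.44 at chr5:179162816-179163036, where OCT1 had 15 in vehicle-treated cells, and 15.52 at chr5:179168190-179168486. MAML2, a second coactivator, had no DNMT3B peak in PTS-treated cells and 1 in vehicle-treated cells, with a pileup of 16, in an intron with a strong enhancer state (chr11:95887476-95887677). Its OCT1 peaks lay elsewhere in the gene, with 15.83 in PTS-treated cells (chr11:95760859-95761077) and 12 and 15 in vehicle-treated cells. MAML3 had 4 OCT1 peaks, of 14 to 17, in vehicle-treated cells alone. RBPJ, the DNA-binding partner of the receptor's inner domain, had OCT1 peaks of 14.84 and 15.83 in PTS-treated cells and 5 other peaks of 15 to 19 in vehicle-treated cells. By the deposited distances its PTS peaks lay 165578 bp and 135119 bp upstream, while GENCODE, with an earlier start, has the nearer one in an intron.

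Of the Notch targets, HES1, a transcriptional repressor induced by Notch, had 13 OCT1 peaks in vehicle-treated cells and 1 in PTS-treated cells. The PTS peak had a pileup of 14.84 and lay 17319 bp past the gene's start in heterochromatin, at none of the vehicle peaks. The vehicle peaks had pileups of 13 to 21 (median 16). Only 1 of them touched the gene, with 17 in an active promoter state 670 bp from its start, and the highest lay 20149 bp past its start in heterochromatin. HEY1 had a single OCT1 peak of 14 in vehicle-treated cells, 216 bp inside the gene in a weak promoter state. No DNMT3B peak was listed for these targets.

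All 9 Wnt ligands had an OCT1 peak in vehicle-treated cells, 52 peaks in total, against 2 peaks in PTS-treated cells. WNT7B and WNT7A, secreted ligands, led them with 17 and 11 peaks, at pileups of 12 to 16 for WNT7B and 12 to 20 for WNT7A. In PTS-treated cells WNT7B had 1 OCT1 peak of 16.82 and WNT7A none. DNMT3B had a peak of 15 at each in vehicle-treated cells, in a coding exon of WNT7B and 12399 bp upstream of WNT7A, and none was listed in PTS-treated cells. WNT11, which mostly acts outside the β-catenin branch, had an OCT1 peak of 16.82 in PTS-treated cells, 7876 bp upstream by GENCODE, and 6 other peaks of 13 to 15 in vehicle-treated cells. WNT4 had 8 peaks of 13 to 18 and WNT3A 4 peaks of 14 to 16, both only in the OCT1 list of vehicle-treated cells. The WNT3A peak with the octamer, shown above, had a pileup of 16. The 4 ligands left, WNT3, WNT5A, WNT5B and WNT10A, had 1 to 3 peaks each, at 13 to 15, in that list alone.

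The Wnt receptors had 21 OCT1 peaks of vehicle-treated cells at 5 of 6 genes, and LRP5, a co-receptor, held 13 of them at pileups of 13 to 18. In PTS-treated cells LRP5 had OCT1 peaks of 16.82 (chr11:68089836-68090039, strong enhancer) and 17.81 (chr11:68195682-68195995, transcribed), and neither shared a base with a vehicle peak. The first has a stretch that is 94.97% identical on chromosome 22, so its value is uncertain. DNMT3B had no peak at LRP5 in PTS-treated cells and 1 of 14 in vehicle-treated cells, in an intron with a strong enhancer state. LRP6, the other co-receptor, had a DNMT3B peak of 16 in vehicle-treated cells and 2 OCT1 peaks of 17 and 18 in vehicle-treated cells, with none in either PTS list. The Frizzled genes had few peaks, all of OCT1 in vehicle-treated cells. FZD2 had 4 of 12 to 15, FZD1 1 of 14 in a weak promoter state and FZD8 1 of 15 in an active promoter state.

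In the cytoplasm, the proteins that pass the Wnt signal on had 41 OCT1 peaks in vehicle-treated cells at 7 of 8 genes and none in PTS-treated cells. GSK3B, the kinase that marks β-catenin for destruction, held 11 of them, at 11 to 18, all in transcribed states. It was also 1 of 3 genes in both DNMT3B lists, but at different places. DNMT3B had 19.17 in PTS-treated cells at chr3:119762862-119763108 and 14 in vehicle-treated cells at chr3:119680035-119680355, both in introns. DVL3, a Dishevelled scaffold, had 9 OCT1 peaks of vehicle-treated cells at 13 to 19, with 4 of them in promoter states. DVL1 had 6 peaks of 14 to 17, AXIN1 8 of 12 to 18, and AXIN2 3 of 13 to 17. APC had 1 peak of 16, in an active promoter state 375 bp inside the gene. CTNNB1, which encodes β-catenin, had 3 of 12 to 15, none of them inside the gene. All of these CTNNB1 peaks were in heterochromatin, at listed distances of 99186 to 307296 bp upstream.

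NLK, a kinase that phosphorylates TCF/LEF factors, held the highest pileup of these genes in both DNMT3B lists, at 1 intronic place, 70148 bp past the gene's start in PTS-treated cells. DNMT3B had 28.31 in PTS-treated cells against 33 in vehicle-treated cells, with deposited P-values of 0.0172 and 0.00543. The ratio, PTS over vehicle, was 0.858 with an exact 95% binomial interval of 0.508 to 1.44, which covers counting error only, so no difference was detectable at this depth. OCT1 had no listed peak here in PTS-treated cells and a peak of 22 in vehicle-treated cells, with a deposited P-value of 0.0732. This is the place with the GT repeats shown above, in heterochromatin and weak enhancer states. The next highest DNMT3B pileups of these genes were 19.17 at GSK3B in PTS-treated cells and 20 at TCF7 in vehicle-treated cells.

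TCF7, which encodes the TCF1 factor that binds β-catenin on DNA, had the most peaks of these genes in every list but that of DNMT3B in PTS-treated cells. It had 1 DNMT3B peak in PTS-treated cells and 17 in vehicle-treated cells, and 20 OCT1 peaks in PTS-treated cells and 60 in vehicle-treated cells. DNMT3B had 17.35 at the PTS peak (chr5:133473421-133473672) and between 13 and 20 (median 15) at the vehicle peaks. OCT1 pileups ranged between 13.85 and 23.75 in PTS-treated cells and between 12 and 23 (median 16) in vehicle-treated cells. The highest OCT1 peak of PTS-treated cells lay upstream in strong and weak enhancer states (chr5:133436569-133436916), with 23.75 against 16 at the vehicle peak that shares bases with it. The ratio was 1.48 with an interval of 0.757 to 2.99, so no difference was detectable at this depth. Just upstream, a further OCT1 peak of vehicle-treated cells had 21 (chr5:133436137-133436493) and shared no base with the PTS peak. A DNMT3B peak of vehicle-treated cells, with 17 (chr5:133436314-133436607), did share bases with the PTS peak. In vehicle-treated cells the highest OCT1 peak was at the promoter, with 23 and a summit 444 bp upstream (chr5:133449515-133450150), and a DNMT3B peak of 13 lay within it. No PTS peak was listed at that place for either antibody.

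**Figure D3:**
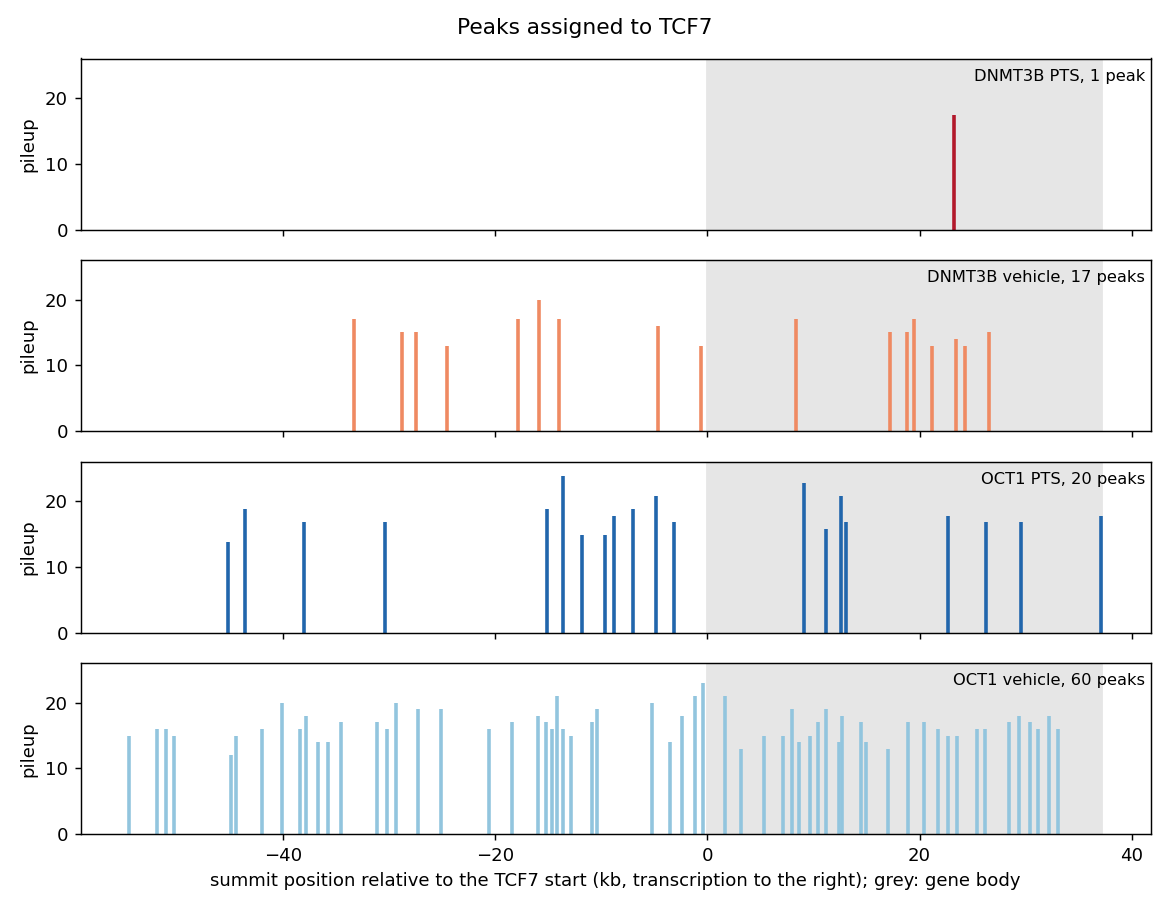
Summits of the peaks assigned to TCF7 in the 4 lists, by position relative to the gene's start (horizontal axis, kb) and deposited pileup (vertical axis), with the gene body in grey. Peaks are spread over the gene and the stretch upstream of it, 1 and 17 for DNMT3B in PTS-treated and vehicle-treated cells and 20 and 60 for OCT1.

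The other TCF/LEF factors had far fewer peaks. TCF7L1 had no peak in PTS-treated cells and, in vehicle-treated cells, DNMT3B peaks of 13 and 14 in introns, with the 14 in a strong enhancer state, and 4 OCT1 peaks of 12 to 18. TCF7L2 had 7 OCT1 peaks of 14 to 17 in vehicle-treated cells alone. LEF1 had a single OCT1 peak of 17 there, in a poised promoter state, which the list gives to LEF1-AS1 as well. Among the Wnt inhibitors, DKK3 had OCT1 peaks of 15.83 in PTS-treated cells and of 13, 18 and 18 in vehicle-treated cells, none at the same place. SFRP1, a secreted Wnt antagonist, had 9 OCT1 peaks of 13 to 16 in vehicle-treated cells only, and 5 of these lay over 100 kb past its start. RNF43 and ZNRF3, ubiquitin ligases that remove Frizzled receptors, had 2 and 6 OCT1 peaks of 14 to 18 in vehicle-treated cells, and none in other lists.

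For OCT1, genes with more peaks tended to have more peaks around them. In the 1 Mb around TCF7 there were 10 DNMT3B peaks in PTS-treated cells, 80 in vehicle-treated cells, 103 OCT1 peaks in PTS-treated cells and 446 in vehicle-treated cells. The median 1 Mb window of the genome held 0, 0, 0 and 8 in that order, and 90% of windows held at most 1, 7, 6 and 57. The surroundings of MAML1 were similarly full, with 60 OCT1 peaks in PTS-treated cells and 383 in vehicle-treated cells. So were those of NOTCH1, with 40 and 385, and of NCSTN, with 48 and 252. APC, on the same chromosome 5 as TCF7 and MAML1, had 0 and 10 around it. Of the 57 genes, 8 in PTS-treated cells and 14 in vehicle-treated cells lay in windows above the OCT1 value that 90% of windows did not pass. Spearman's rho across the 57 genes, between the OCT1 peaks of a gene and those in its window, was 0.430 in PTS-treated cells and 0.596 in vehicle-treated cells, as a description only, since a gene's own peaks are in its window and all points share their libraries. Its value with gene length was 0.0650 and 0.278. For DNMT3B in vehicle-treated cells the order was the other way, with 0.236 for the window and 0.432 for gene length. Pileups stand against a constant background, and the copy number of these regions in MCF10CA1a cells, and its part in these counts and pileups, was not tested.

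**Figure D4:**
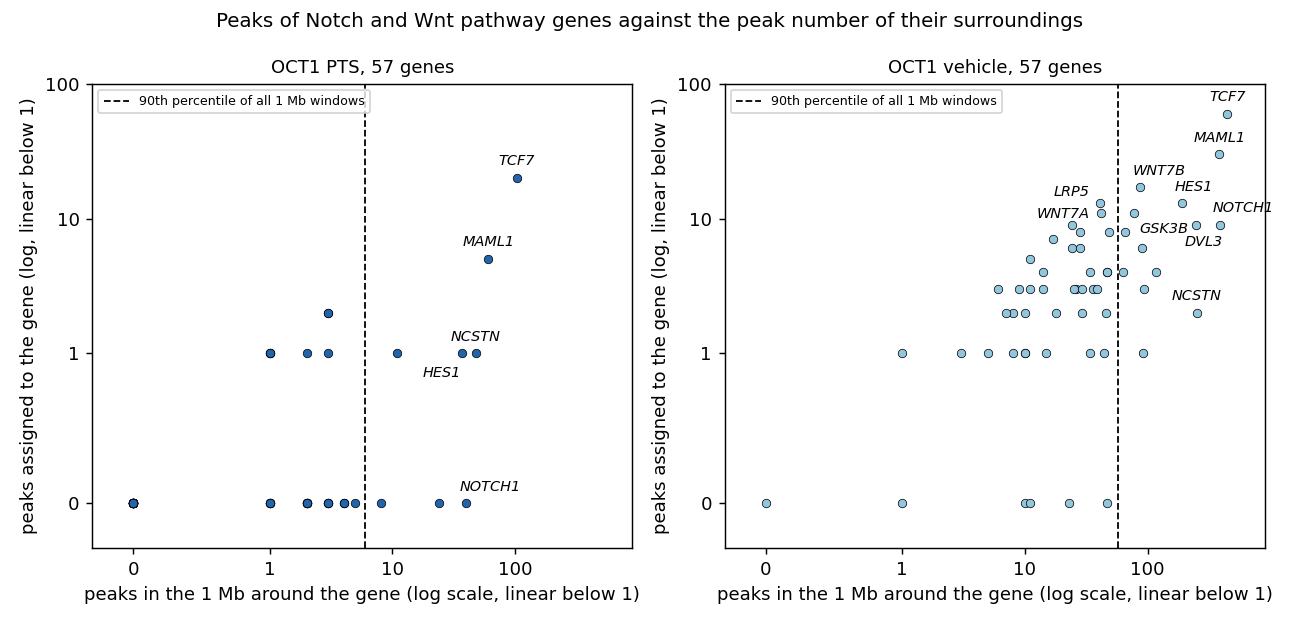
Peaks assigned to each of the 57 genes (vertical axis) against all peaks in the 1 Mb around it (horizontal axis) in the OCT1 lists of PTS-treated cells (left) and vehicle-treated cells (right), both axes on a log scale that is linear below 1. TCF7 has the fullest surroundings in both, with 103 and 446 peaks, and NOTCH1 has 0 and 9 of its own among 40 and 385.

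The balance between the lists differed between TCF7 and the other genes. For OCT1, these genes had 12.1 PTS peaks for every 100 vehicle peaks, and all peaks on chromosomes 1 to 22 and X had 18.7. TCF7 alone had 33.3, while the genes without it had 7.09, with 18 peaks in PTS-treated cells and 254 in vehicle-treated cells. Within the latter group MAML1 had 16.7, from 5 and 30 peaks. For DNMT3B these genes had 22.2 PTS peaks for every 100 vehicle peaks, TCF7 5.88 and the genes without it 50.0, from 5 and 10 peaks, beside 24.0 for all peaks. In the 1 Mb around TCF7 the values were 23.1 for OCT1 and 12.5 for DNMT3B. With 1 list per group, none of these differences could be tested.

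A peak's state is that of human mammary epithelial cells (HMEC), not of MCF10CA1a. In these states, 111 of the 314 OCT1 peaks of vehicle-treated cells (35.4%, exact interval 30.1 to 40.9) lay in promoters or enhancers, beside 22.5% of all peaks and 23.4% of peaks assigned to protein-coding genes. Enhancer states held 81 of them (25.8%, against 16.97% of all peaks) and promoter states 34 (10.8%, against 6.83%). Transcribed states held 39.8% against 29.1%, and heterochromatin 27.7% against 48.3%. None of the 314 was in a repetitive state (exact upper limit 1.17%), which held 1.57% of all peaks. Neighboring peaks share a gene, so they are not independent, but the share was 35.0% without TCF7 and 37.1% without TCF7 and MAML1. The OCT1 peaks of PTS-treated cells had 14 of 38 in promoters or enhancers (36.8%, beside 20.1% of all peaks). For DNMT3B it was 2 of 6 in PTS-treated cells (exact interval 4.33 to 77.7, beside 20.1% of all peaks). In vehicle-treated cells it was 11 of 27 (40.7%, exact interval 22.4 to 61.2, beside 22.6%). Both intervals hold the share of all peaks. The 11 were in enhancers of LRP5, MAML2, NLK, TCF7, TCF7L1 and WNT7A, and without TCF7 the share was 50% of 10 peaks.

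**Figure D5:**
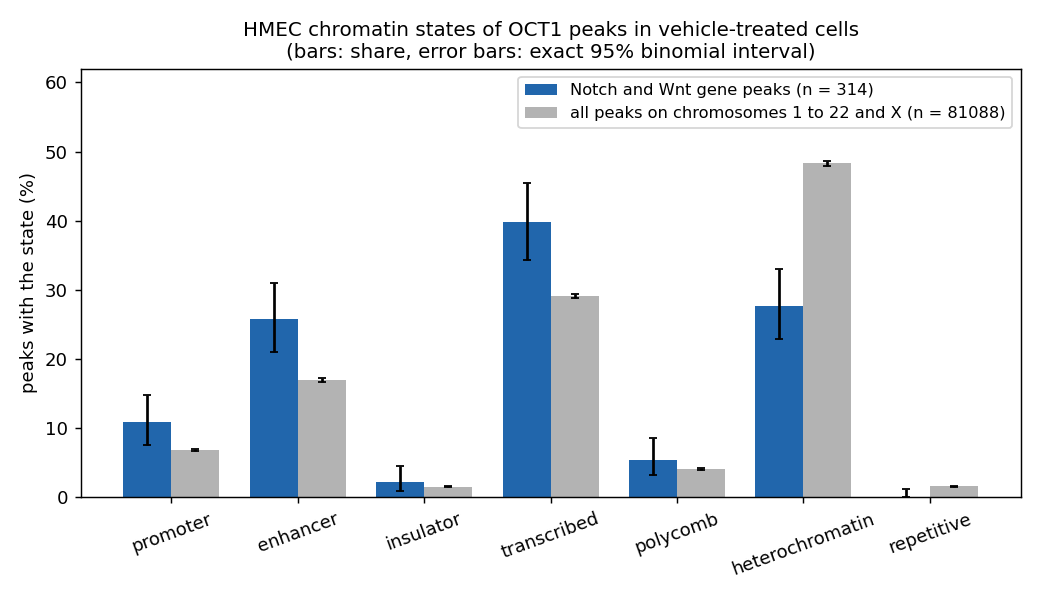
Share of OCT1 peaks of vehicle-treated cells (vertical axis, percent) in each class of HMEC chromatin state, for the 314 peaks of Notch and Wnt genes (blue) and all 81088 peaks on chromosomes 1 to 22 and X (grey), with exact 95% binomial intervals. A peak can count in several classes. Promoter, enhancer and transcribed classes are higher for the 314 peaks and heterochromatin lower, 27.7% against 48.3%.

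Of the 57 genes, 25 (43.9%) had an OCT1 peak of vehicle-treated cells in a promoter state, beside 19.2% of protein-coding genes. For 13 of these (22.8% of the 57) such a peak had its summit within 1 kb of the gene's start, beside 12% of protein-coding genes. The 13 were APC, DLL4, DVL3, FZD8, HES1, HEY1, LEF1, MAML1, NCSTN, RFNG, SFRP1, TCF7 and TCF7L1, with pileups between 14 and 23. LFNG also had a summit 478 bp inside the gene, with a pileup of 16, but in a transcribed state. In PTS-treated cells, OCT1 peaks in promoter states were listed only for NCSTN and for TCF7, where it had 18.8 at a listed distance of 43416 bp upstream. These were 2 of 38 peaks (5.26%), beside 3.86% of all peaks, and 2.07% of protein-coding genes had such a peak. A summit within 1 kb of a start was listed only for NCSTN, and for 2.02% of protein-coding genes. Most peaks lay farther away. In vehicle-treated cells 167 of 314 OCT1 summits were in introns, 75 upstream and 44 downstream, while 8 were in coding exons, 12 in UTRs and 8 in other exons.

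Where both treatments had an OCT1 peak, the pileups were close. Of the 38 OCT1 peaks of PTS-treated cells, 15 (39.5%) shared at least 1 base with a vehicle peak, beside 54.5% of all peaks. In the other direction it was 17 of 314 (5.41%, exact interval 3.19 to 8.53), beside 9.79% of all peaks and 8.90% of peaks of protein-coding genes. The 15 pairs were at TCF7 (11 of them), JAG2, MAML1, NCSTN and NOTCH2. Their median ratio, PTS over vehicle, was 1.05 (lowest 0.825, highest 1.48), with PTS higher at 10 and vehicle higher at 5, and no exact interval left out 1. The median over the 8245 pairs of all peaks was 0.990. NOTCH2 had a ratio of 1.45 (0.720 to 3.01), JAG2 of 0.825 (0.432 to 1.56), MAML1 of 1.22 (0.549 to 2.75) and NCSTN of 1.05 (0.510 to 2.16). Only peaks past the minimum of both lists enter these pairs, so they hold no peak that was lost or gained. A vehicle peak was matched more often when it was high. Among OCT1 vehicle peaks with a pileup of 18 to under 21, 9.30% of 43 peaks of these genes and 17.1% of all peaks had a PTS peak, and below 15 it was 2.68% of 112 and 3.75%. From 21 up it was 1 of 7 (14.3%, exact interval 0.361 to 57.9) and 52.4%. Among OCT1 PTS peaks of 15 to under 18, 43.5% of 23 peaks of these genes and 47.9% of all peaks had a vehicle peak. At 18 to under 21 it was 42.9% of 7 and 57.6%, and from 21 up 66.7% of 3 and 86.9%. Below 15 it was 0 of 5 and 38.7%. For DNMT3B, 1 of 6 peaks of PTS-treated cells (16.7%, exact interval 0.421 to 64.1) and 1 of 27 of vehicle-treated cells (3.70%, 0.0937 to 19.0) were matched, both at NLK. Of all peaks, 56.9% and 13% were matched, which these wide intervals hold. With a gap of at most 200 bp allowed, 2 of 6 and 2 of 27 (7.41%) peaks of these genes were matched, since the TCF7 peak of PTS-treated cells lies near a vehicle peak. Higher DNMT3B peaks, too, were matched more often. With 1 shared base, 4.19% of all vehicle peaks below 15 and 6.73% of those of 15 to under 18 were matched. Of these genes, 0 of 9 and 0 of 16 were. Among all PTS peaks it was 37.5% at 15 to under 18 and 50.7% at 18 to under 21. Here these genes had 0 of 3 and 0 of 2. From 21 up, 91.2% of all PTS peaks and 72.7% of all vehicle peaks were matched, and of these genes only NLK lay there.

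DNMT3B and OCT1 were found at the same bases at few of these genes. In PTS-treated cells it was 1 of 6 DNMT3B peaks (exact interval 0.421 to 64.1), in TCF7, with 17.35 for DNMT3B and 17.81 for OCT1. Of all DNMT3B peaks it was 56.5%, which this wide interval holds. In vehicle-treated cells 11 of 27 DNMT3B peaks (40.7%) shared bases with an OCT1 peak, 10 at TCF7 and 1 at NLK, beside 46.6% of all. Seen from OCT1 it was 10 of 314 peaks (3.18%), beside 8.34% of all. A total of 12 genes had a DNMT3B peak in either list, and all of these also had an OCT1 peak in vehicle-treated cells, as did 92.4% of protein-coding genes with a DNMT3B peak. For 10 of the 12 no DNMT3B peak shared a base with an OCT1 peak of the same treatment, which held for 61.2% of those protein-coding genes, and most of the 10 had a single DNMT3B peak.

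The octamer ATGCAAAT, searched on both strands, was in 2 of the 314 OCT1 peaks of vehicle-treated cells (0.637%, exact interval 0.0772 to 2.28), those of TCF7 and WNT3A shown above, each with a pileup of 16. It was in 0.873% of all peaks of that list. None of the 38 OCT1 peaks of PTS-treated cells had it, with an upper limit of 9.25%, and 1.22% of all peaks did. The WNT3A summit lay 1106 bp before the gene's start, in a Polycomb-repressed state, and the TCF7 summit 25375 bp past its start in a transcribed one. Tandem repeats were searched as uninterrupted runs of at least 24 bases with units of at most 6 bases. The spaced copies of CCAGGGCA at JAG2 fall outside this search. Such runs were in 1 of 6 DNMT3B peaks of PTS-treated cells (8.92% of all peaks) and 1 of 27 of vehicle-treated cells (4.36% of all), both at NLK. Of the OCT1 peaks of vehicle-treated cells 3 of 314 held one (1.37% of all), at NLK and MAML1. The OCT1 peaks of these genes in vehicle-treated cells had a median GC content of 55.3% and 2.00 CpG per 100 bases, against 53.2% and 1.63 for all peaks.

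Other genes of the same pathways were counted in the same way. Of 79 further Notch and Wnt genes, 3 (3.80%) had a DNMT3B peak in PTS-treated cells and 14 (17.7%) in vehicle-treated cells. OCT1 peaks were listed for 13 (16.5%) in PTS-treated cells and 61 (77.2%) in vehicle-treated cells. A deposited P-value under 0.05 was reached by NOTCH2NL, a partial copy of NOTCH2, in all 4 lists and by RSPO2, a secreted activator of Wnt signaling, for DNMT3B in vehicle-treated cells, with a pileup of 25.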

How the data were processed

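ChIP-seq of DNMT3B and OCT1 was analysed from 4 deposited peak lists. The methods name cutadapt for trimming, BWA for alignment on GRCh37/hg19, MACS2 for calling peaks with pooled inputs as background, ChIPseeker for genes and the HMEC ChromHMM track for states. The methods also describe differential calling between treatments, but the deposited values set each peak against a constant. There is 1 list per group, and how its replicates were combined is not stated. Software versions are not given in the sources used here. The deposited pileup is a signal in fragments, whose scaling in PTS lists is inferred from the values, and the deposited fold is a ratio of pileup to a constant background. Each peak has a deposited −log10 p-value, and the P-value column used here is a score the authors derived from it. The q-value columns were not used. The inputs and reads were not analysed here.

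Each peak was counted once with all its states, and chromosome X rows split over columns were rejoined. Genome sequence was GRCh37, and gene models were GENCODE 44 lifted to it. Peaks were matched by at least 1 shared base. Intervals are exact 95% binomial intervals. Single lists per group allow no test between treatments. Depth was derived from the background with fragments of 200 bp, and depth per replicate is unknown. Near-identical copies (at least 90% identity over 80% of a peak) were searched with minimap2 2.31-r1302. Work was done in Python 3.11.15 with pysam 0.24.0, scipy 1.17.1, pandas 2.3.3, numpy 2.4.6 and matplotlib 3.10.9, and the overlap and interval code was tested on simulated data. Genes given in full had a peak with a P-value under 0.05, at a promoter, in both treatments or with both antibodies, or were among the 5 with the highest OCT1 pileup in vehicle-treated cells, or were MAML2 or NLK, and the others are given by role. The genes and lists were chosen with earlier results of these data known. Alternatives were a common minimum pileup, a P-value under 0.05, a distance of at most 10 kb, counting lines, a gap of 200 bp, 50% of the shorter peak shared, pileups without scaling, the first state only and ATGCWAAT. Counts without TCF7, and without TCF7 and MAML1, were added after seeing the data.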

Additional observations from a re-analysis of the deposited data

How the results depend on the processing

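A total of 30 alternatives left the value within 1.5 times, or for a share within its counting interval, and 12 did not. Requiring a deposited P-value under 0.05 left 1 gene for DNMT3B in PTS-treated cells (5 without it), 1 for DNMT3B in vehicle-treated cells (10), 0 for OCT1 in PTS-treated cells (13) and 1 for OCT1 in vehicle-treated cells (51). By the deposited distances, counting only peaks inside a gene or within 10 kb left 8 genes for OCT1 in PTS-treated cells. NOTCH2, RBPJ and WNT11, left out by it, would stay by the GENCODE models. With a gap of at most 200 bp, 7.41% of DNMT3B peaks of vehicle-treated cells had a PTS peak (3.70% with 1 shared base), which stayed within the counting interval. With 50% of the shorter peak shared, 2.55% of OCT1 peaks of vehicle-treated cells had a PTS peak (5.41% with 1 base). Over all peaks of that list it was 8.02% (9.79% with 1 base). By the first listed state 29.0% of the OCT1 vehicle peaks of these genes were in promoters or enhancers (35.4% with all). Over all peaks of the list it was 19.8% (22.5% with all). Without TCF7, chosen after seeing the data, 18 OCT1 peaks of PTS-treated cells and 10 DNMT3B peaks of vehicle-treated cells were left (38 and 27 with it). Without TCF7 and MAML1, likewise, 3 and 10 DNMT3B peaks of PTS-treated and vehicle-treated cells and 13 OCT1 peaks of PTS-treated cells were left. The 12 that moved counted fewer peaks, genes, places or states. No paired analysis was possible because each group has a single list with no values per replicate, which also allowed no analysis without single replicates. Pileups near the lowest listed level cannot show whether a peak missing from a list was absent from the cells.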
